A study of Mus musculus with 12 samples.

Results

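The Kruppel-like factors form a family of zinc-finger transcription factors, and 10 of them, Klf2, Klf3, Klf4, Klf5, Klf6, Klf7, Klf9, Klf10, Klf11 and Klf13, were taken by gene name from the 54022 genes of the deposited tables. They were measured by RNA sequencing in MIN6 cells, an insulin-secreting line grown from a mouse insulinoma in which beta cells carried a viral oncogene, so every library comes from 1 tumour-derived line. Cells received vehicle or trimethylamine N-oxide (TMAO, 100 nM, 18 h), a metabolite made by the liver from a product of gut bacteria, and after a fast were exposed to low (2.8 mM) or high (16.8 mM) glucose. The concentrations of glucose are from the study's supplement, and the length of the glucose exposure before RNA was taken is not given in the sources used here. There were 3 cultures in each of the 4 conditions: low glucose with vehicle, low glucose with TMAO, high glucose with vehicle and high glucose with TMAO. The comparisons ask how the factors respond to glucose under each treatment, how they respond to TMAO at each glucose level, and whether one response depends on the other.

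Kruppel-like factors bind GC-rich and CACCC-type DNA through zinc fingers at the C terminus, and differ in the N-terminal part that recruits partners. Klf2, Klf4, Klf5, Klf6 and Klf7 belong to the group best known as activators, Klf3 represses through the CtBP corepressors, and Klf9, Klf10, Klf11 and Klf13 recruit the Sin3 corepressor. Several are early-response genes, whose transcripts appear soon after a stimulus and without new protein synthesis. In beta cells Klf11 binds the insulin gene and has been tied to inherited diabetes, and Klf10, first found as a gene induced early by TGF-beta, is also a clock-controlled and glucose-responsive gene in liver.

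All 10 factors were among the 16222 genes that passed the filter on low counts. Total counts per library lay between 16793162 and 22340542. The factors differed widely in the number of fragments behind each value. Klf5 had 26 to 65 counts per library and Klf2 had 39 to 93, whereas the other 8 had between 277 and 2335. Beta-cell markers were present as the label states: all 13 were counted, and Ins2 had an FPKM (fragments per kilobase of gene length and per library size) from 22781 to 27445. Of the 5 endothelial markers, of interest because Klf2 and Klf4 are also known from that cell type, 0 passed the filter, and their summed FPKM stayed between 0.0569 and 0.218.

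The 10 genes lie on 10 different chromosomes of mm10 (GRCm38). Klf4 (ENSMUSG00000003032) occupies bases 55527143 to 55532466 of chromosome 4 (minus strand), Klf6 (ENSMUSG00000000078) bases 5861482 to 5870394 of chromosome 13 (plus strand), and Klf13 (ENSMUSG00000052040) bases 63886351 to 63938915 of chromosome 7 (minus strand). These were the factors called with both treatments when glucose was raised, and the 250 bases before their RefSeq start sites (GRCm38.p6) are printed 5′ to 3′ on the gene's strand, where capitals mark 4 motifs on whichever strand they occur: the GC box GGGCGG, the E-box with its letters CACGTG, the half-site of the cAMP response element written TGACG, and the family's classical letters CACCC. The stretches are chr4:55532476-55532725 (minus), chr13:5861239-5861488 (plus) and chr7:63938916-63939165 (minus).
Klf4: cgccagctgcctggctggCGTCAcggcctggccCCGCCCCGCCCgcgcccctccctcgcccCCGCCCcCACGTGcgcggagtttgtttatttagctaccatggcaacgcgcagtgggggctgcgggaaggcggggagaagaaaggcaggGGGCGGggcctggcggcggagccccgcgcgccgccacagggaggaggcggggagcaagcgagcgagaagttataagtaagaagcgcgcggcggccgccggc
Klf6: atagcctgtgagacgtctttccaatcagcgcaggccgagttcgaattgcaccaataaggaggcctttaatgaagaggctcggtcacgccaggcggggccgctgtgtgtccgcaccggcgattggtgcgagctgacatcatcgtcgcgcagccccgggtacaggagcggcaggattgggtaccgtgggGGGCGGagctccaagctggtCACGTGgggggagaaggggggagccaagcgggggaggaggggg
Klf13: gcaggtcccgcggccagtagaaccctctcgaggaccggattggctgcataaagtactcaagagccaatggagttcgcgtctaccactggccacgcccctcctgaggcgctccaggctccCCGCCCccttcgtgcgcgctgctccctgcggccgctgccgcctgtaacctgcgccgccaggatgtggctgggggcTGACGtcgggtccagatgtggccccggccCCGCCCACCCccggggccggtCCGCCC

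Start-site sequences of this length were found for 8 of the 10 factors, without Klf5 and Klf10, and compared with all 32851 windows of the RefSeq table. The GC box GGGCGG, which Sp and Kruppel-like factors can bind, was in 7 of the 8 windows, all but that of Klf9, and in 32.7% of all windows. The palindrome CACGTG, an E-box, was in 3 (Klf4, Klf6 and Klf11) against 6.02% of all, and TGACG, the core of the cAMP response element, was in 4 (Klf2, Klf4, Klf9 and Klf13) against 17.8%. CACCC, the letters of the family's own classical site, was in 5 of 8 and in 52.0% of all. The full element TGACGTCA, which contains TGACG, and the CArG box of serum response factor were in 0 of 8, and in 1.55% and 1.47% of all windows. Only the Klf2 window held a MEF2 box, found in 1.69% of all. Both strands were searched. The windows of the factors were richer in G and C than most, from 59.2% to 78.4%, where the median over all windows was 52.4%. In these windows Klf4 and Klf6 shared the GC box and the E-box. Klf4 and Klf13 shared the GC box and the core of the cAMP response element. That core was also in the windows of Klf2 and Klf9, which were not called with glucose. It was absent from the window of Klf11, which was called higher with glucose in TMAO-treated cells. Whether any of these motifs goes with the direction of the glucose response was not tested.

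Klf9 was the most abundant factor per length in every condition, followed by a group of similar level (Klf13, Klf11, Klf6 and Klf10), then Klf7, Klf3 and Klf2, with Klf5 lowest. In low glucose with vehicle, Klf9 had an FPKM of 25.3 ± 0.819 (SD, n = 3), against 12.3 ± 0.365 for Klf6, 12.2 ± 0.187 for Klf13 and 11.3 ± 0.483 for Klf11. Klf6 and Klf13 overlapped between libraries, and each of the other neighbours in this order was separated in all 3 libraries. Below them came Klf10 (9.20 ± 0.253), Klf7 (6.58 ± 0.470), Klf4 (5.10 ± 0.294), Klf3 (2.98 ± 0.0625), Klf2 (1.90 ± 0.658) and Klf5 (0.549 ± 0.110). Klf4 went from the 7th place of 10 in both low-glucose conditions to the 3rd in high glucose with vehicle and the 2nd with TMAO. In high glucose its libraries overlapped with those of Klf13 and Klf11. Klf6 moved the other way, from the 2nd (vehicle) and 3rd (TMAO) places in low glucose to the 6th in high glucose. The summed FPKM of the 10 genes was 87.4 ± 0.943 in low glucose with vehicle and 100.0 ± 1.54 in high glucose with vehicle, and with TMAO it was 89.7 ± 2.19 and 100.7 ± 2.80 (SD, n = 3). Klf4 made up 5.83% of that sum in low and 12.98% in high glucose with vehicle.

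**Figure D1:**
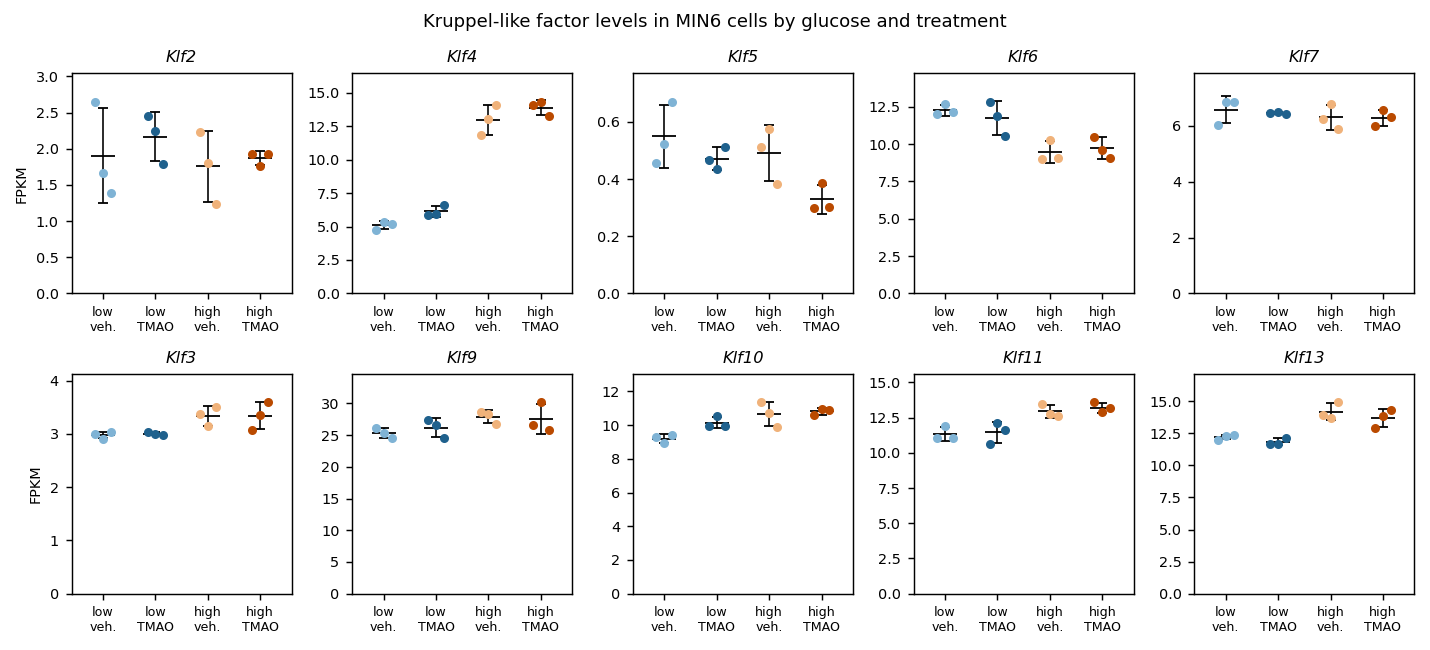
FPKM of each of the 10 factors in the 12 libraries, with glucose and treatment on the x axis and FPKM from 0 on the y axis of each panel. Points are libraries, and the black bars give mean and SD (n = 3). Klf4 separates low from high glucose most widely, from at most 6.62 to at least 11.8, and Klf5 and Klf2 show the widest relative scatter.

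Among genes of the same families that are not in this group, Klf16 (FPKM 14.8 to 17.9 over the 12 libraries) and Klf12 (2.97 to 3.74) were also expressed, as were Sp3 (25.0 to 28.7), Sp8 (15.3 to 21.2), Sp2 (14.3 to 17.5), Sp1 (9.39 to 11.04) and Sp4 (5.21 to 6.19). Klf1 and Klf8 had at most 35 and 71 counts per library. Klf14, Klf15 and Klf17 had at most 1 count in any library and were not tested.

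**Figure D2:**
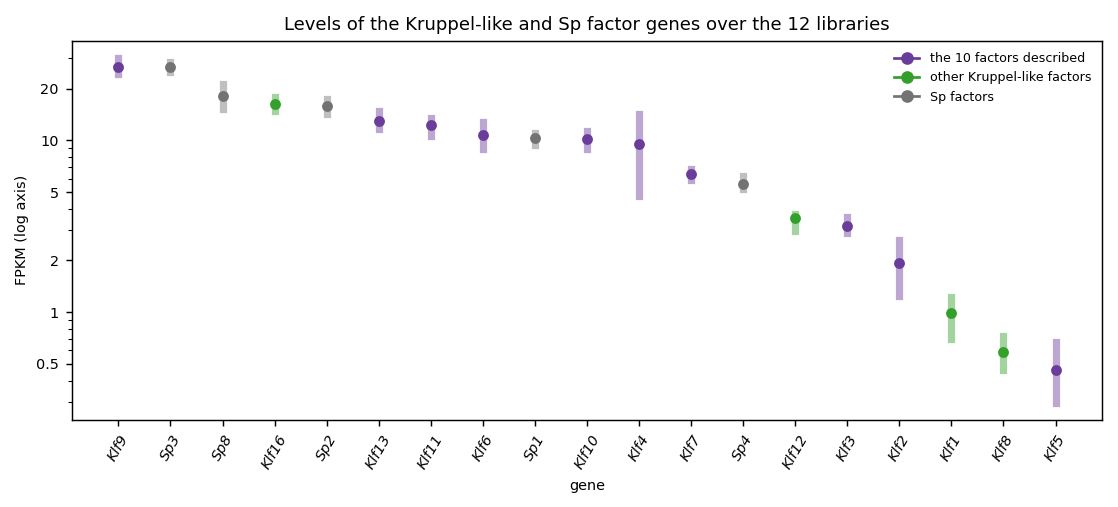
Mean FPKM (points) and the range over the 12 libraries (bars) of the tested Kruppel-like and Sp factor genes, in order of mean, on a log axis. Klf9 and Sp3 lead at a mean of 26.7 each, and the long bar of Klf4, from 4.77 to 14.3, spans the glucose levels.

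Glucose changed 4 of the 10 factors under each treatment, 3 upwards and 1 downwards. The 10 were chosen with earlier results of these data known, so the shares of all genes given beside them are description and no test. Of 4 other tested Kruppel-like factors 0 were called with glucose. In vehicle-treated cells, Klf4, Klf10 and Klf13 were called higher, where 1.99% of all tested genes were, and Klf6 was called lower, where 1.31% were. In TMAO-treated cells, Klf4, Klf11 and Klf13 were called higher against 2% of all tested genes, and Klf6 lower against 1.64%. The vehicle and TMAO comparisons use separate libraries, but were fitted together with a shared estimate of the spread, so their p-values are not independent. The median log2 fold change of the 10 factors was 0.16 with vehicle and 0.084 with TMAO, and that of all tested genes was 0.0021 and 0.0012. The counts rested on single libraries. With vehicle, leaving out any 1 of the 6 libraries left 2 factors called higher, Klf4 with Klf13 or, without high-glucose vehicle replicate 3, Klf4 with Klf10, and Klf6 called lower. With TMAO, Klf4 alone was called higher, and 0 factors lower, without low-glucose TMAO replicate 1 or high-glucose TMAO replicate 2 or 3, and 0 factors were called lower without low-glucose TMAO replicate 2. Read library by library, the high-glucose values of 6 factors (Klf3, Klf4, Klf9, Klf10, Klf11 and Klf13) lay wholly above those of low glucose with vehicle, as did 9.28% of all tested genes, and those of Klf6 lay wholly below, as did 9.49%. With TMAO, 5 factors lay wholly above (all of these but Klf9), as did 8.98% of all tested genes, and Klf5 and Klf6 lay wholly below, as did 9.43%.

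**Figure D3:**
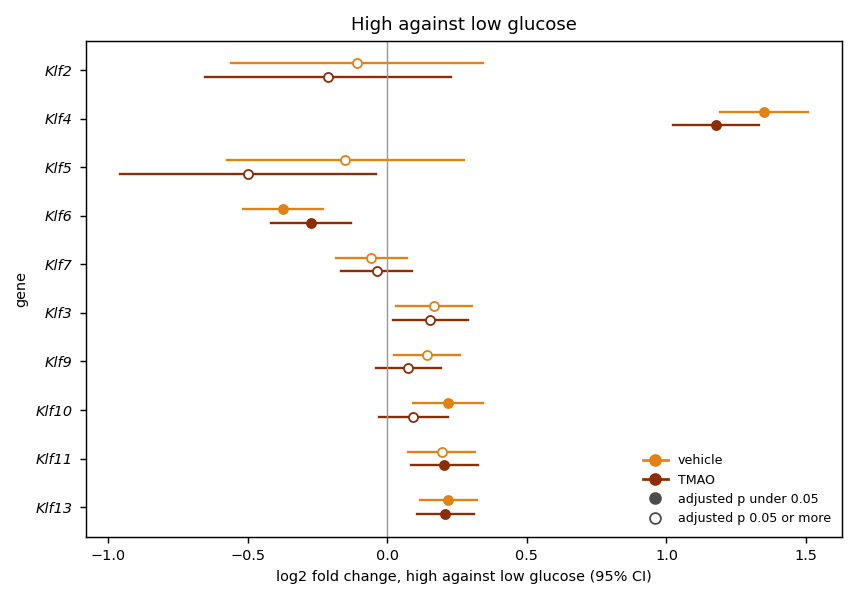
Log2 fold change of each factor in high against low glucose (x axis) with its 95% confidence interval from edgeR, for vehicle-treated (orange) and TMAO-treated (brown) cells. Filled points have an adjusted p under 0.05. Klf4 stands at 1.35 and 1.18, the filled points left of 0 are those of Klf6, and the other filled points lie between 0.20 and 0.22.

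Klf4, an early-response gene and one of the factors used to reprogram cells to pluripotency, rose most. Its FPKM in the 3 libraries of low glucose with vehicle was 4.77, 5.35 and 5.17, and in those of high glucose with vehicle 11.8, 13.1 and 14.1. With TMAO the values were 5.88, 5.97 and 6.62 in low glucose and 14.1, 14.3 and 13.3 in high glucose. Every high-glucose library lay above every low-glucose library. Klf4 was 2.55-fold higher in high glucose with vehicle (log2 fold change 1.35, standard error 0.077, adjusted p = 3.44e-14) and 2.26-fold higher with TMAO (log2 fold change 1.18, standard error 0.075, adjusted p = 5.28e-13). By p it was the 18th of the 16222 tested genes in the vehicle comparison and the 20th in the TMAO comparison.

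Klf6, an activator induced by tissue injury and studied as a tumour suppressor, fell with both treatments. Its FPKM was 12.02, 12.7 and 12.1 in low glucose with vehicle and 8.97, 10.3 and 9.09 in high glucose with vehicle, without overlap. With TMAO it was 12.8, 11.9 and 10.6 in low glucose and 10.5, 9.63 and 9.07 in high glucose, where the highest library of high glucose lay just under the lowest of low glucose. The log2 fold change was -0.37 with vehicle (standard error 0.070, adjusted p = 0.00101) and -0.27 with TMAO (standard error 0.070, adjusted p = 0.0228), or 0.772 and 0.828 times the low-glucose level. The call with vehicle was kept without any 1 library. The call with TMAO was lost without low-glucose TMAO replicate 1 (adjusted p = 0.188) or 2 (0.0557), and without high-glucose TMAO replicate 2 (0.0888) or 3 (0.172). It was also lost with limma on log2(FPKM + 1), where the adjusted p was 0.113.

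The rise of Klf4 and the fall of Klf6 reversed the order of these activators. In all 6 low-glucose libraries Klf4 had a lower FPKM than Klf6, with a ratio of Klf4 to Klf6 from 0.397 to 0.426 with vehicle and from 0.459 to 0.626 with TMAO. In all 6 high-glucose libraries Klf4 had the higher FPKM, with ratios from 1.27 to 1.55 and from 1.34 to 1.49.

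**Figure D4:**
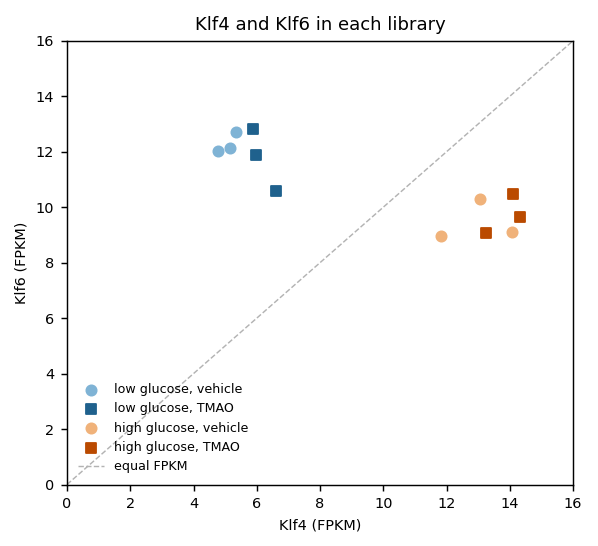
FPKM of Klf4 (x axis) and Klf6 (y axis) in each of the 12 libraries, with a dashed line where both are equal. The 6 low-glucose libraries lie above the line and the 6 high-glucose libraries below it. In low glucose the vehicle libraries (circles, Klf4 from 4.77 to 5.35) lie to the left of the TMAO libraries (squares, 5.88 to 6.62), and in high glucose their Klf4 ranges overlap.

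Of the factors that recruit Sin3, Klf13, known from lymphocytes and heart development, rose with both treatments. Its FPKM was 12.01, 12.3 and 12.4 in low glucose and 14.0, 13.7 and 14.9 in high glucose with vehicle. With TMAO it was 11.7, 11.7 and 12.1 in low glucose and 12.9, 13.8 and 14.3 in high glucose. The glucose levels did not overlap under either treatment. The log2 fold change was 0.22 with vehicle (standard error 0.050, adjusted p = 0.00778) and 0.21 with TMAO (standard error 0.050, adjusted p = 0.0127). The vehicle call was lost without high-glucose vehicle replicate 3 (adjusted p = 0.111). The TMAO call was lost without low-glucose TMAO replicate 1 (0.0600) or high-glucose TMAO replicate 2 (0.0688) or 3 (0.113), and was 0.0526 with limma on log2(FPKM + 1). Antisense to Klf13 lie Gm27252, with a mean of 15.8 counts per library, and E030018B13Rik, with 3.58, against 1848 for Klf13.

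Klf10 and Klf11, the close pair of TGF-beta-inducible early genes, lay near the threshold. Klf10 had an FPKM of 9.27, 8.92 and 9.41 in low and 11.4, 10.7 and 9.91 in high glucose with vehicle, a rise with a log2 fold change of 0.22 (standard error 0.061, adjusted p = 0.0438). With TMAO its FPKM was 9.96, 10.5 and 9.95 in low and 10.6, 10.96 and 10.9 in high glucose. That difference was 0.093 (standard error 0.061, adjusted p = 0.526). Klf11 had an FPKM of 11.03, 11.9 and 11.1 in low and 13.5, 12.7 and 12.6 in high glucose with vehicle, a log2 fold change of 0.19 (standard error 0.059, adjusted p = 0.0661). With TMAO its FPKM was 10.7, 12.1 and 11.6 in low and 13.6, 12.9 and 13.1 in high glucose, and it rose by 0.20 (standard error 0.059, adjusted p = 0.0441). In all 4 of these comparisons the high-glucose libraries lay above the low-glucose libraries. Neither call was firm. The Klf10 call was lost without low-glucose vehicle replicate 1 (adjusted p = 0.110), 2 (0.227) or 3 (0.0790) and without high-glucose vehicle replicate 1 (0.234) or 2 (0.126). The Klf11 call was lost without low-glucose TMAO replicate 1 (0.281) or 3 (0.0786) and without high-glucose TMAO replicate 1 (0.167), 2 (0.0848) or 3 (0.131). With DESeq2 the adjusted p was 0.0673 for Klf10 and 0.0567 for Klf11.

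Klf9, the most abundant factor and a target of glucocorticoid and thyroid hormone receptors, and Klf3, the CtBP-binding repressor, had positive differences that did not pass the threshold. The log2 fold change of Klf9 was 0.14 with vehicle (95% confidence interval 0.026 to 0.26, adjusted p = 0.234) and 0.076 with TMAO (-0.042 to 0.19, adjusted p = 0.612). For Klf3 it was 0.17 with vehicle (0.033 to 0.30, adjusted p = 0.22) and 0.15 with TMAO (0.020 to 0.29, adjusted p = 0.246). The 5′ part of the Klf3 gene overlaps C230096K16Rik on the same strand (mean 42.0 counts) and Gm20033 on the other (40.9), against 672.8 for Klf3. Within Klf7 lie Gm13748 (mean 1.17 counts) and Gm26649 (0) on the other strand and Mir6899 (0) on the same strand, against 988.2 for Klf7, and within Klf9 lies Mir1192 (1.58 counts) on the same strand, against 1655 for Klf9. Whether fragments were counted by strand is not given in the sources used here.

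The remaining activators gave no call. Klf7, best known from neurons, had a log2 fold change of -0.057 with vehicle (95% confidence interval -0.18 to 0.071) and -0.038 with TMAO (-0.17 to 0.089). Klf2, a factor of quiescent endothelium and T cells, gave -0.11 (-0.56 to 0.34) and -0.21 (-0.65 to 0.23). Klf5, which drives growth of epithelia, gave -0.15 (-0.57 to 0.27) with vehicle and -0.50 (-0.96 to -0.041, adjusted p = 0.283) with TMAO. At 26 to 93 counts per library the intervals of Klf2 and Klf5 were wide. Each included a fall of the size seen for Klf6 under the same treatment. The sign of Klf2 with vehicle turned without low-glucose vehicle replicate 1 (0.21) or high-glucose vehicle replicate 3 (0.079), and that of Klf5 without low-glucose vehicle replicate 3 (0.014).

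TMAO called 0 of the 10 factors at either glucose level. In low glucose edgeR called 1 of the 16222 genes (0.00616%), in high glucose 0 (0%), and 357 and 868 genes had an unadjusted p under 0.05. DESeq2 called 1 gene and limma 0 genes at each glucose level. With no filter on low counts edgeR called 5 of 30981 genes higher and 2 lower in low glucose, and 5 higher and 8 lower in high glucose. None of these alternatives called a factor. Among the 10 factors Klf4 had the lowest p in low glucose, the 14th of the 16222 tested genes. As listed above, its 3 TMAO libraries (5.88 to 6.62 FPKM) lay above its 3 vehicle libraries (4.77 to 5.35), a log2 fold change of 0.27 (standard error 0.083, 95% confidence interval 0.10 to 0.44, unadjusted p = 0.00261, adjusted p = 1). Klf10 also lay wholly above in low glucose, 9.95 to 10.5 FPKM against 8.92 to 9.41, with 0.14 (standard error 0.061, unadjusted p = 0.0281, adjusted p = 1). Libraries without overlap in either direction were found for these 2 factors and for 6.36% of all tested genes. In high glucose 0 factors were so separated, against 11.1% of all tested genes, and Klf4 gave 0.10 (standard error 0.070, adjusted p = 0.927).

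In high glucose the lowest p was that of Klf5, with an FPKM of 0.297, 0.386 and 0.303 with TMAO and 0.513, 0.575 and 0.383 with vehicle, the lowest vehicle library lying just under the highest TMAO library. Its log2 fold change was -0.57 (standard error 0.22, 95% confidence interval -1.03 to -0.11, unadjusted p = 0.0163, adjusted p = 0.91), from 26 to 61 counts per library. For the 8 factors with a mean of at least 200 counts, the 95% confidence intervals for TMAO reached from -0.20 (Klf6) to 0.44 (Klf4) in low glucose and from -0.16 (Klf13) to 0.24 (Klf4) in high glucose. A change beyond these limits, at most 1.36-fold up in low and 1.18-fold up in high glucose, lies outside the interval of each of the 8.

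**Figure D5:**
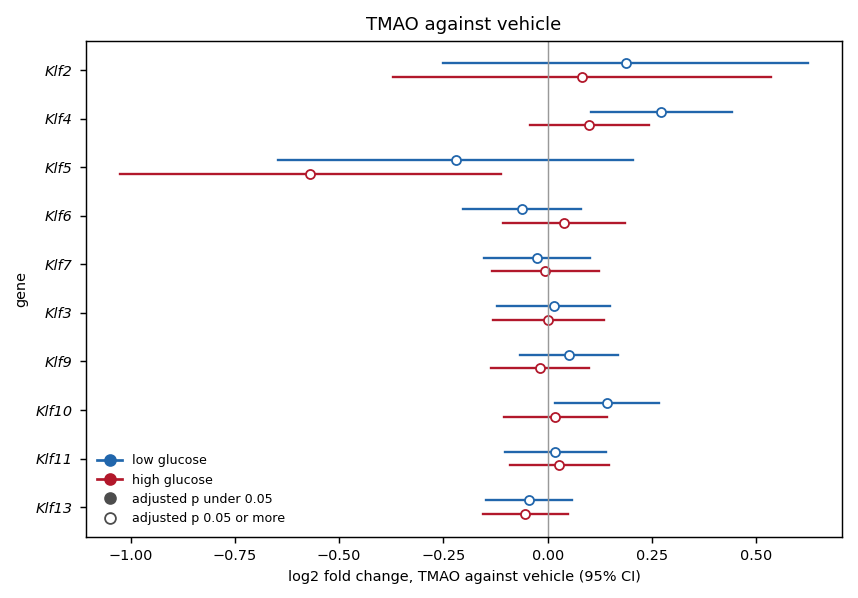
Log2 fold change of each factor with TMAO against vehicle (x axis) and its 95% confidence interval from edgeR, in low (blue) and high (red) glucose. All points are open, since 0 of 10 passed an adjusted p of 0.05, and the intervals that leave out 0 are those of Klf4 and Klf10 in low and of Klf5 in high glucose.

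The test of the interaction asked whether the glucose response differed between vehicle and TMAO. It called 0 of the 10 factors and 0 of all tested genes (0%) with edgeR, with 0 factors and 545 genes at an unadjusted p under 0.05, and DESeq2 and limma called 0 genes. With no filter on low counts edgeR called 1 gene higher and 5 lower of 30981, and 0 of the factors. For Klf4 the glucose response was smaller with TMAO by 0.17 on the log2 scale, and this difference of -0.17 had a standard error of 0.11 and a 95% confidence interval from -0.39 to 0.049 (unadjusted p = 0.122). For Klf10, called in vehicle only, it was -0.12 (standard error 0.086, unadjusted p = 0.162). The other factors ranged from -0.35 for Klf5 to 0.10 for Klf6. A different glucose response under TMAO did not pass the threshold for any factor.

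Genes around the family were followed as lists, to be read against the 1.99% of all tested genes called higher and 1.31% called lower with glucose in vehicle, and 2% and 1.64% with TMAO. At such shares 0 called genes in lists of this size is no result about them. Of 20 regulators upstream of Kruppel-like factors, all but Tgfbr2, which had 0 counts in every library, were tested. Of these 19, 2 rose with glucose under both treatments. They were Crem, a cAMP-responsive transcription factor gene (log2 fold change 1.05 with vehicle, adjusted p = 2.02e-05, and 1.02 with TMAO, adjusted p = 3.02e-05), and Mef2d, which encodes a MEF2 factor (0.37, adjusted p = 1.65e-06, and 0.24, adjusted p = 0.00128). The median of the list was 0.0026 with vehicle and -0.019 with TMAO. Of 14 tested corepressors, acetyltransferases and ubiquitin ligases that bind Kruppel-like factors, among them Ctbp1, Sin3a and Ep300, 0 were called, and of 19 tested genes known as targets of the family, among them Cdkn1a, Cdkn1b, Pdx1 and Ins2, 0 were called. Of 4 tested other Kruppel-like factors 0 were called. Of 5 tested Sp genes, Sp8 rose with vehicle (0.24, adjusted p = 0.0194), and its value with TMAO was 0.18 (adjusted p = 0.124). TMAO called 0 genes of these lists at either glucose level.

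The factors called in both glucose comparisons were also set beside the tested genes with the most similar pattern over the 12 libraries, which include both glucose levels, so that these correlations rest mostly on the difference between them. Among 12300 genes with a mean of at least 50 counts, those most correlated with Klf4 were Egr1, an early-response transcription factor (Pearson r = 0.990), Tgif1, a homeobox repressor (0.990), and Pde4b, a cAMP phosphodiesterase (0.988). For Klf13 they were Slc19a2, a thiamine transporter (0.968), Ubn1 (0.959) and the transcription factor gene Maf (0.958), and for Klf6 the splicing factor gene Tra2b (0.952), Trim59 (0.952) and Pop1 (0.949). Among the factors themselves, r over the 12 libraries ran from -0.91 for Klf6 with Klf13 to 0.90 for Klf3 with Klf13, and it was -0.87 for Klf4 with Klf6.

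Some marker genes differed between the glucose levels as well. The summed FPKM of the 13 beta-cell markers was 42682 to 46308 in low and 46491 to 48100 in high glucose with vehicle, and 41677 to 47427 and 46162 to 49342 with TMAO. Of these, Neurod1 rose under both treatments (log2 fold change 0.58 and 0.59) and Mafa with vehicle (0.66, adjusted p = 0.0126), where its value with TMAO was 0.43 (adjusted p = 0.0917). The other islet markers, mostly Gcg, summed to 203.8 to 218.4 in low and 225.1 to 229.6 in high glucose with vehicle, and to 200.7 to 213.5 and 224.2 to 228.3 with TMAO, with 0 of 3 tested genes called. Of the 5 leukocyte markers, Ptprc and Adgre1 were at 0 in every library, and the list, carried by Cd68, summed to 2.92 to 3.63 in low and 4.36 to 4.88 FPKM in high glucose with vehicle, where Cd68 had a log2 fold change of 0.46 (adjusted p = 0.0743). With TMAO the sums lay closer, 3.91 to 4.12 in low and 4.13 to 4.32 in high glucose, and Cd68 had a log2 fold change of 0.070 (adjusted p = 0.885). Of the exocrine and duct and of the fibroblast markers 1 each was tested, and 0 were called. The part of these markers in the changes of the factors was not tested. In RNA from whole cultures, a change in the share of cells that express a factor and a change in its RNA per cell cannot be told apart.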

How the data were processed

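Per the labels, MIN6 libraries fell into 4 conditions of 3 biological replicates. The authors deposited a table of counts, the number of fragments on each gene without normalization, and a table of FPKM values, which divide the count by gene length and library size. The submitters' processing notes name HISAT2 2.0.5, featureCounts 1.5.0-p3, DESeq2 1.16.1 and mm10. The kit was NEBNext Ultra with poly-T selection. Counts were tested in R 4.3.3 with edgeR 4.0.16: filterByExpr by condition, TMM, and glmQLFTest with robust settings, fitted once to the 12 libraries with a mean for each of the 4 conditions. The methods name no test for counts. Adjusted p-values are Benjamini-Hochberg values over the 16222 tested genes, called under 0.05, and intervals are 95%. Each vehicle or TMAO group enters more than 1 comparison. Normalized counts are scaled by TMM library sizes.

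The 10 members and all lists were chosen with earlier results of these data known. Members were named throughout, as were list genes called in any pairwise comparison, other Kruppel-like or Sp genes with a mean FPKM of at least 1, the 3 genes most correlated with each member called in both glucose comparisons, and genes overlapping a member. Klf18 was not analysed here. Alternatives were DESeq2 1.42.0, its size factors in edgeR, other filters, the 6 libraries of a comparison, a replicate block, limma 3.58.1 with FPKM as log2(FPKM + 1) and as log2(FPKM + 0.1), and leaving out each library. Steps were tested on simulated counts. Figures used matplotlib 3.10.9.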

Additional observations from a re-analysis of the deposited data

How the results depend on the processing

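For high against low glucose with vehicle, 2 to 4 factors were called higher and 1 lower under the alternatives, including each library left out. With TMAO, limma on log2(FPKM + 1) or on log2(FPKM + 0.1) called 1 higher (Klf4) and 0 lower, and leaving out each library gave from 1 to 3 higher and from 0 to 1 lower. The cause was not tested. TMAO and the interaction called 0 factors under every alternative run. Leaving out each library turned the sign of 6 of 60 values (4 factors) for TMAO in low glucose. It turned 11 of 60 (6 factors) in high glucose and 18 of 120 (5 factors) for the interaction. The turned values were at most 0.0237, 0.106 and 0.0976 in size. Klf4 kept both glucose calls in every alternative, with log2 fold changes from 1.20 to 1.41 with vehicle and from 1.06 to 1.23 with TMAO. Klf10 with vehicle and Klf11 with TMAO lost their calls in several alternatives. With no filter on low counts their adjusted p was 0.0695 and 0.0512, and when only the 6 libraries compared were fitted it was 0.0544 and 0.0673.

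Leaving out each library, the log2 fold change with glucose in vehicle-treated cells ranged from -0.31 to 0.21 for Klf2 and from -0.29 to 0.014 for Klf5, whose counts, at most 93 per library, limit what can be seen. Limma on FPKM with a pseudocount of 1 shrinks the change of Klf5 with TMAO in high glucose from -0.57 to -0.16. Same-numbered libraries did not deviate together in every pair (correlations from -0.036 to 0.20 over 12 pairs), so the replicate numbers were not taken as pairs, and not every library correlated best with its own number. With the replicate block, Klf11 was also called with vehicle (adjusted p = 0.0444), making 4 factors higher, and no other call on the factors changed. Of all genes, those called for glucose with vehicle went from 323 to 412 higher and from 213 to 305 lower. For glucose in TMAO-treated cells they went from 325 to 410 higher and from 266 to 373 lower.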
